A study of Mus musculus with 18 samples.

Results

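Immediate early genes are genes that cells transcribe within minutes of a stimulus from factors already present, and 10 of them were followed here by name among the 51912 genes counted: *Fos*, *Fosb*, *Jun*, *Junb*, *Egr1*, *Egr2*, *Egr3*, *Ier2*, *Arc* and *Dusp1*. All 10 passed the filter, 10 or more read pairs summed over 18 libraries, as did 24495 genes in all. The cells were primary cortical astrocytes of newborn Aldh1l1-EGFP/Rpl10a mice, grown from pooled male and female cortices, kept without serum for 24 h and then given control medium or 50 mM ethanol for a further 24 h, also without serum. In these mice the ribosomal protein RPL10A carries an EGFP tag that is expressed under the regulatory sequences of the astrocyte gene *Aldh1l1*, so both treatments and both fractions carried the transgene. Translating ribosome affinity purification (TRAP) gave the IP fraction, the mRNA pulled down with tagged ribosomes, and the input fraction was a portion of the same cleared lysate taken before the pull-down. IP libraries came from 6 control and 6 ethanol dishes, and input libraries from 3 dishes of each treatment, replicates 4 to 6. The ethanol dishes are labelled 13 to 18 and the control dishes 19 to 24, so treatment and dish number cannot be told apart. Nothing states that dishes came from separate cultures, so the p-values refer at most to the spread between dishes. The fits take that spread in part from other genes, so for a single gene it can differ from that of its own dishes.

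Fos and Jun family proteins pair to form the transcription factor AP-1, and the Egr proteins are zinc finger activators that bind GC-rich sites. Growth factors, calcium and stress reach these genes through the ERK, JNK and p38 kinases, which act on SRF with its partners of the ternary complex factor family and on CREB. The response is brief because the mRNAs decay fast, many of them through AU-rich elements in the 3′ UTR, and because products such as the phosphatase DUSP1 switch the kinases off. In astrocytes, as in neurons, these genes are commonly used as signs of recent stimulation.

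Sequences that could carry such regulation are shown for the members in which the files hold a match. The promoter windows were those of RefSeq (GRCm38.p6), 250 bases before to 50 after a transcription start, and they were at hand for 6 of the 10 genes (*Fos*, *Fosb*, *Jun*, *Junb*, *Egr2* and *Dusp1*, 10 windows in all). Both strands were searched for the CArG box bound by SRF, the cAMP response element TGACGTCA, the TATA box TATAAA and the EGR site GCGGGGGCG. The first was present in 1.63% of the 32851 windows searched, the second in 1.79%, the third in 13.6% and the fourth in 2.91%. The *Fos* window held a TATA box whose first base lay 33 bases before the start (position -33), *Dusp1* a cAMP response element at position -143, *Egr2* a pair of CArG boxes, CCTTTTTTGG and CCATATATGG, each at position -72 from a RefSeq start of its own, and *Fosb* an EGR site at position -50. *Junb* had a TATA box at its RefSeq start itself, and the *Jun* window held none of the 4 motifs, which says only that those letters are not in that window. Printed 5′ to 3′ with the motif in capitals are the *Fos* stretch chr12:85473740-85473889 (plus strand, positions -150 to -1), the *Dusp1* stretch chr17:26508523-26508672 (minus strand, positions -200 to -51) and, for the second of its boxes, the *Egr2* stretch chr10:67537787-67537816 (plus strand, positions -82 to -53).
Fos: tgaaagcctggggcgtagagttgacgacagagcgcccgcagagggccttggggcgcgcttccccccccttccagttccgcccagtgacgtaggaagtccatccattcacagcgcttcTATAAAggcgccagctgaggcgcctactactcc
Dusp1: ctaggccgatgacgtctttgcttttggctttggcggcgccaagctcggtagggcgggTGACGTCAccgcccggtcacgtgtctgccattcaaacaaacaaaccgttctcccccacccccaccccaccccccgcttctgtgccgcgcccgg
Egr2: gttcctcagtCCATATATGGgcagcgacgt

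The longest annotated 3′ UTR of each gene was used (GENCODE M21, GRCm38), and the members differed in their AU-rich elements. The nonamer TTATTTATT, a core through which such mRNAs are bound and degraded, was found 1 time in *Fos* and 2 times in *Dusp1*, and in no other member. Among the 16808 tested genes with an annotated 3′ UTR, 7.74% held the nonamer and 1.8% held it at least 2 times. The shorter pentamer ATTTA reached 5.80 per kb in *Dusp1*, 4.91 per kb in *Fos* and 4.12 per kb in *Junb*, densities that 4.33%, 6.59% and 9.95% of those genes reached or passed (median 1.23 per kb). *Ier2* and *Arc* held no ATTTA, and 67.4% of all genes held at least 1. The 3 nonamer sites, with the nonamer in capitals, are in *Fos* at chr12:85477103-85477132 (plus strand) and in *Dusp1* at chr17:26506158-26506187 and chr17:26505869-26505898 (minus strand).
Fos site: tgttttcaatTTATTTATTaagatggattc
Dusp1 site nearer the stop codon: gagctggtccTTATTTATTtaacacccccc
Dusp1 site farther from the stop codon: gtttttacctTTATTTATTtttgtgtaggt

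All 10 mRNAs were counted in every library, at levels that differed widely. Levels are given as CPM, the usual count scaled to sequencing depth, here with TMM-scaled library sizes, and as CPM per kb of transcript where genes are compared with each other. The gene counts of a library summed to between 74239854 and 132810705 read pairs, and a member took between 46 (*Egr3*) and 30203 (*Junb*) of them in a library. Depth therefore limits *Egr3* most, followed by *Fosb*, *Egr2* and *Arc*. Per length, *Junb* was the most abundant member in input control, at 118 ± 11.4 CPM per kb (SD, n = 3). *Jun* (37.7 ± 1.12), *Egr1* (36.3 ± 6.13), *Ier2* (33.4 ± 6.27) and *Dusp1* (27.6 ± 1.72) followed, each overlapping the next in its libraries, and *Fos* lay below them at 18.0 ± 4.03. *Arc* (2.11 ± 0.292) and *Egr2* (1.91 ± 0.339) overlapped each other, and *Fosb* (0.703 ± 0.0664) and *Egr3* (0.277 ± 0.0410) were lowest, each clear of its neighbours. The serum-free cultures thus held both abundant and scarce immediate early mRNAs. The IP control fraction had another order, *Junb* at 111 ± 6.66, *Jun* at 52.3 ± 1.12 and *Dusp1* at 30.5 ± 2.81 (n = 6), with *Ier2* (13.4 ± 4.31), *Egr1* (12.6 ± 3.80) and *Fos* (9.47 ± 3.89) below them and overlapping one another.

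**Figure D1:**
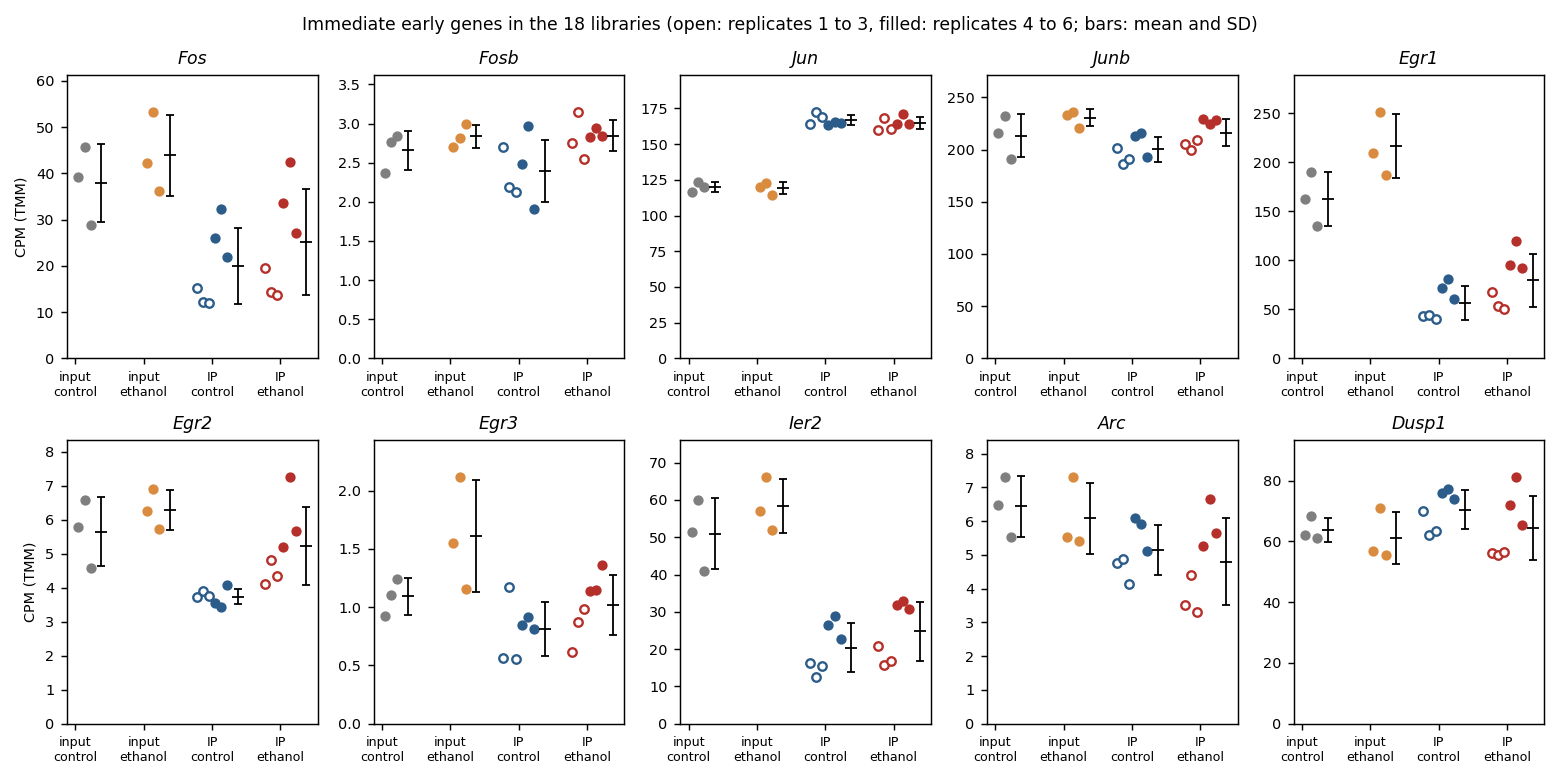
CPM (y axes, from 0) of the 10 genes in the 18 libraries, grouped by fraction and treatment. Open points are replicates 1 to 3 and filled points replicates 4 to 6, and the bar beside each group is its mean and SD. *Jun* lies higher in IP than in input in every library, *Egr1* and *Ier2* lower in every library, and within each treatment the IP libraries of replicates 4 to 6 lie above those of replicates 1 to 3 for *Fos*, *Egr1*, *Ier2*, *Arc* and *Dusp1*.

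IP and input were compared to ask which mRNAs were held on astrocyte ribosomes at a higher or lower share than in the lysate. Of the 10 genes, 6 differed (edgeR's quasi-likelihood test over 18 libraries, Benjamini-Hochberg adjusted p below 0.05), where 51.0% of all tested genes differed. *Egr1*, *Ier2*, *Fos*, *Egr3* and *Egr2* were lower in IP, 5 of 10 beside 25.8% of all genes, and *Jun* was higher. The median log2 fold change of the 10 was -0.38, and that of all genes -0.03. *Fosb*, *Junb*, *Arc* and *Dusp1* did not pass.

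*Egr1* (ENSMUSG00000038418, chromosome 18, 34859823 to 34864984, plus strand), the founding member of its family, had the largest difference. Input control libraries held 162.7, 190 and 135 CPM and input ethanol libraries 210, 252 and 187 CPM. IP control libraries ranged from 39.7 to 80.7 CPM with a median of 51.9, and IP ethanol libraries from 50.5 to 119 CPM with a median of 79.5. No IP library reached the lowest input library, and the log2 fold change was -1.48 ± 0.186 (SE, adjusted *p* = 2.82e-06), 2.80-fold lower in IP. *Ier2* (ENSMUSG00000053560, chromosome 8, 84661331 to 84662852, minus strand), which encodes a small nuclear protein, showed the same separation. Its input libraries held 51.5, 60.1 and 41.1 CPM in control and 57.0, 66.2 and 52.1 CPM in ethanol. Its IP libraries ranged from 12.6 to 28.8 CPM in control (median 19.5) and from 15.6 to 33.0 CPM in ethanol (median 25.8), a log2 fold change of -1.28 ± 0.186 (adjusted *p* = 1.58e-05).

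*Fos* (ENSMUSG00000021250, chromosome 12, 85473890 to 85477273, plus strand) held 39.2, 45.7 and 28.8 CPM in input control and 42.2, 53.4 and 36.2 CPM in input ethanol. In IP it ranged from 12.02 to 32.2 CPM in control (median 18.6) and from 13.7 to 42.5 CPM in ethanol (median 23.4), so that the fractions overlapped, with a log2 fold change of -0.86 ± 0.252 (adjusted *p* = 0.00838). *Egr2* (ENSMUSG00000037868, chromosome 10, 67535475 to 67542188, plus strand), best known for its part in hindbrain patterning and myelination, ranged from 4.59 to 6.90 CPM in input and from 3.43 to 7.26 CPM in IP, and fell by 0.43 ± 0.112 on the log2 scale (adjusted *p* = 0.00352). *Egr3* (ENSMUSG00000033730, chromosome 14, 70077203 to 70082614, plus strand) fell by 0.56 ± 0.149 (adjusted *p* = 0.00189), at 0.924 to 2.12 CPM in input and 0.555 to 1.36 CPM in IP. *Jun* (ENSMUSG00000052684, chromosome 4, 95049034 to 95052222, minus strand), the main DNA-binding partner in AP-1, went the other way, with 114 to 124 CPM in the 6 input and 160 to 173 CPM in the 12 IP libraries. Its log2 fold change was 0.47 ± 0.0202 (adjusted *p* = 1.48e-32), 1.38-fold higher in IP with no overlap. In all, 3 of the 10 genes had no overlap between the fractions, beside 25.0% of all genes.

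Both fractions of the same 6 dishes were sequenced, so the ratio within a dish could be read directly. *Egr1* was lower in IP in all 6 dishes, at 0.439, 0.425 and 0.444 of the input CPM in the control dishes and 0.455, 0.474 and 0.489 in the ethanol dishes. *Ier2* lay between 0.480 and 0.589 of input and *Fos* between 0.666 and 0.798, also lower in 6 of 6. Ratios this even between dishes contrast with the wide spread of the levels themselves. *Jun* was 1.34 to 1.44 times its input in the 6 dishes, and *Dusp1*, the phosphatase that inactivates p38, JNK and ERK (ENSMUSG00000024190, chromosome 17, 26505590 to 26562128, minus strand), 1.13 to 1.27 times, higher in 6 of 6. With a block for the dish in this subset of 12, 7 of the 10 genes passed, where 47.6% of all genes did. *Dusp1* then passed, with a log2 fold change of 0.25 ± 0.0243 (adjusted *p* = 5.16e-24) in place of 0.11 ± 0.0866 (adjusted *p* = 0.324) over 18 libraries. In the same 12 libraries without the block it passed as well (adjusted *p* = 0.0184), while *Fos* (adjusted *p* = 0.0618) and *Egr2* (adjusted *p* = 0.0992) did not. In these 12 libraries with the block, *Jun* stayed at 0.47, and the genes lower in IP had smaller differences than over 18 libraries. These were -1.14 ± 0.0217 for *Egr1*, -0.92 ± 0.0284 for *Ier2*, -0.43 ± 0.0296 for *Fos*, -0.37 ± 0.125 for *Egr3* and -0.32 ± 0.0681 for *Egr2*. The median of the 10 genes was -0.383 over 18 libraries, -0.224 in the 12 without the block and -0.218 with it. That median thus moved more with the choice of libraries than with the block. *Junb* (-0.03 ± 0.0204), *Arc* (-0.11 ± 0.0585) and *Fosb* (-0.05 ± 0.0838) did not pass under the block either.

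**Figure D2:**
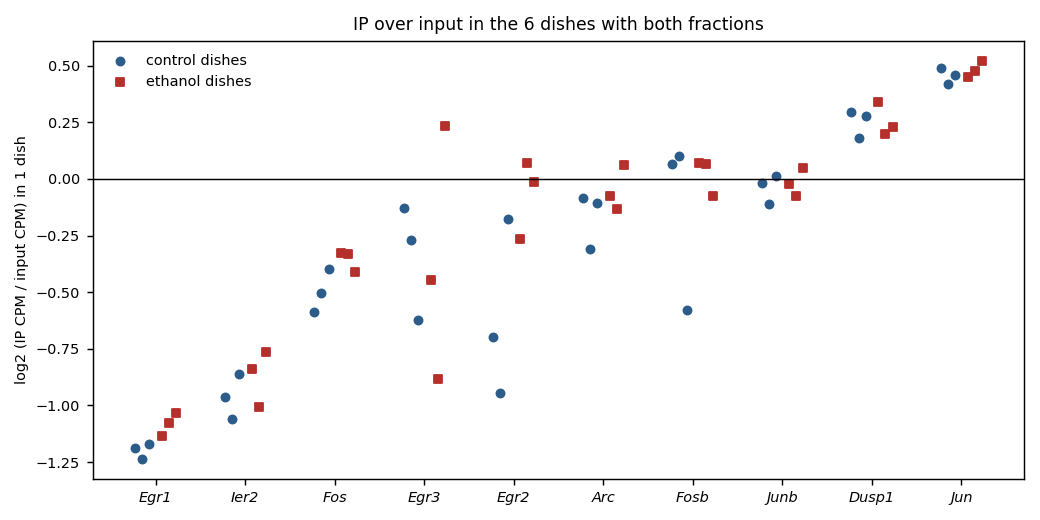
Log2 of IP CPM over input CPM (y axis) in each of the 6 dishes sequenced in both fractions, for the 10 genes ordered by their mean (x axis). Circles are control and squares ethanol dishes. *Egr1*, *Ier2* and *Fos* lie below 0 and *Dusp1* and *Jun* above 0 in every dish, while the dishes of *Egr2* and *Egr3* spread over more than 1 log2 unit.

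The fractions also differed in markers of other cell types. The summed CPM of 11 microglia markers was 125.6 to 149.2 in input and 31.2 to 39.0 in IP, and 10 of the 11 were lower in IP. The 7 markers of meningeal cells and fibroblasts summed to 237 to 246 CPM in input and 127.5 to 145.8 CPM in IP, with 4 lower, *Col1a1* among them (142.9 CPM in input control and 45.6 CPM in IP control), and 3 higher. Astrocyte markers went the other way, with 1103 to 1183 CPM in input and 1733 to 1929 CPM in IP (8 of 9 higher). Markers of neurons (161 to 173 CPM in input, 207 to 231 CPM in IP) and of the oligodendrocyte lineage (161 to 184 and 250 to 289 CPM) were higher in IP as sums (5 of 10 neuron markers higher and 2 lower, 4 of 9 oligodendrocyte markers higher and 4 lower), through genes such as *Map2*, *Stmn2* and *Olig1*. Markers within these lists differed widely in level. *Snap25*, *Dcx*, *Sox10* and *Mog* had group means of at most 0.112 CPM. In input control and IP control, *Tubb3* was at 14.4 and 20.9 CPM, *Olig2* at 30.9 and 46.7 CPM and *Cspg4* at 10.2 and 21.1 CPM. The part of other cells in the members' differences was not tested, and in bulk samples fewer cells of a type and less RNA per cell cannot be told apart.

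The IP libraries of replicates 4 to 6, the dishes that also have an input library, stood above those of replicates 1 to 3 for several members, a split chosen after the values were seen. *Fos* held 15.3, 12.3 and 12.02 CPM in IP control replicates 1 to 3 and 26.1, 32.2 and 21.9 CPM in replicates 4 to 6. In IP ethanol the same gene held 19.6, 14.3 and 13.7 CPM in replicates 1 to 3 and 33.6, 42.5 and 27.2 CPM in replicates 4 to 6. The means of the sets thus differed 2.03-fold in control and 2.17-fold in ethanol, with no overlap. *Egr1* (1.68-fold and 1.79-fold), *Ier2* (1.76-fold and 1.80-fold), *Arc* (1.24-fold and 1.56-fold) and *Dusp1* (1.163-fold and 1.3-fold) were also higher in replicates 4 to 6 in both treatments with no overlap. These 5 of 10 genes stand beside 0.612% of all tested genes with that pattern, and 99 genes had the opposite one. *Jun* did not share it (0.978-fold and 1.02-fold), nor did *Fosb* (1.05-fold and 1.02-fold). The labels do not say how the sets differed in handling, and the summed markers of microglia overlapped between the sets in ethanol (37.1 to 38.7 and 34.8 to 39.0 CPM) and were lower in replicates 4 to 6 in control (33.3 to 34.7 and 31.2 to 32.9 CPM). The summed meningeal and fibroblast markers were higher in replicates 4 to 6 in ethanol with no overlap (127.5 to 138.7 and 141.3 to 145.8 CPM) and overlapped in control (134.1 to 144.3 and 129.1 to 138.3 CPM). The summed markers of astrocytes, neurons, the oligodendrocyte lineage and endothelial and mural cells overlapped between the sets in both treatments. The cause of the split was not tested.

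The same dishes were high or low in both fractions. Within each treatment the order of replicates 4, 5 and 6 was the same in IP as in input for *Fos*, *Egr1*, *Ier2* and *Dusp1*, 4 of 10 genes, beside 4.16% of all tested genes and 4.72% of the 9734 genes averaging 10 CPM or more. In input control, *Dusp1* held 62.0, 68.3 and 61.0 CPM in replicates 4 to 6, and in IP control 76.0, 77.4 and 74.0 CPM. Over the 6 dishes, deviations in input and in IP were taken from the mean of replicates 4 to 6 of each treatment and fraction. Their Pearson's r was 0.98 for *Egr1*, 0.97 for *Fos*, 0.96 for *Ier2*, 0.90 for *Dusp1*, 0.88 for *Arc*, 0.85 for *Junb* and 0.71 for *Jun*. It is given as a description since each pair of points shares a dish. For the scarce *Egr2*, *Egr3* and *Fosb* it was -0.10, -0.69 and -0.23.

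The spread between dishes within groups was wide for several members beside other genes of their level. The SD of log2 CPM within groups was 0.558 for *Fos*, and the median over the 2337 genes within 0.5 log2 units of its level was 0.0582. No gene of that level had a larger SD than *Fos*, and the same held for *Egr1*, with 0.413 beside 0.0419. *Ier2* had 0.426 beside 0.0557, *Dusp1* 0.177 beside 0.0447, and *Arc* 0.292 beside 0.109. *Egr3* (0.382 beside 0.230), *Egr2* (0.216 beside 0.113) and *Junb* (0.0924 beside 0.0388) were nearer the median as a ratio. Still, only 1.17%, 0.532% and 0.788% of the genes of their level had a larger SD. *Jun* (0.0386 beside 0.0393) and *Fosb* (0.164 beside 0.1503) varied like other genes of their level. The deviations of *Fos* from its group means over the 12 IP libraries ran with those of *Egr1* (Pearson's r = 0.99), *Ier2* (0.97), *Dusp1* (0.94), *Junb* (0.85) and *Arc* (0.84), and not with those of *Jun* (0.01). These correlations rest on the same libraries and on the split between replicates 1 to 3 and 4 to 6, and they are a description.

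**Figure D3:**
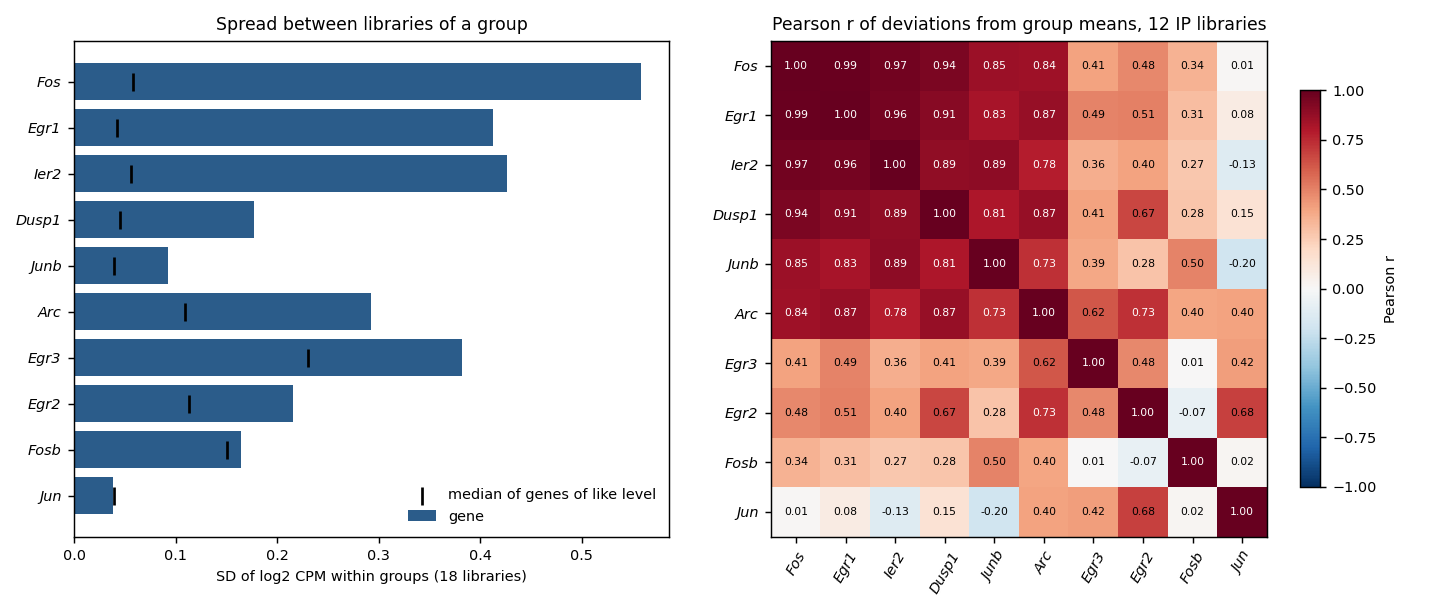
Left, SD of log2 CPM within groups over the 18 libraries (x axis) for the 10 genes (bars) and the median of genes of like level (black marks). Right, Pearson's r between the genes' deviations from their group means over the 12 IP libraries, from -1 (blue) to 1 (red). *Fos*, *Egr1*, *Ier2* and *Dusp1* share values of at least 0.89, and *Jun* reaches 0.01 with *Fos*.

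Outside the 10 genes, those most like their mean deviation over the 12 IP libraries were sought among 11059 genes, those averaging 5 CPM or more. *Cyr61*, which encodes a secreted matricellular protein and is itself an immediate early gene, came first (Pearson's r = 0.94), at 1019 to 1032 CPM in IP control replicates 1 to 3 and 1085 to 1150 CPM in replicates 4 to 6. *Herc3* (0.92), *Trappc8* (0.92), *Cyfip2* (0.92) and *Zfp236* (0.91) followed, with SDs within groups of at most 0.0878 log2 units. All were picked as the highest r among 11059 genes over 12 libraries. Whether values this high exceed what such picking alone gives was not tested. Of the lists of related genes, *Zfp36*, which encodes the protein tristetraprolin that binds AU-rich elements and is induced like an immediate early gene, had the same split, with 20.5 to 22.1 CPM in IP control replicates 1 to 3 and 29.3 to 34.4 CPM in replicates 4 to 6. Its deviations had an r of 0.98 with those of *Fos*. Of the 33 other immediate early genes only *Cyr61* had the split in both treatments. The SRF coactivator *Mkl2* had it among 17 upstream factors, with 55.0 to 57.8 CPM in IP control replicates 1 to 3 and 58.4 to 59.7 CPM in replicates 4 to 6, and 56.4 to 60.5 CPM and 62.1 to 64.1 CPM in ethanol. It was seen in 0 of 28 kinases and adaptors, 15 feedback inhibitors, 16 SRF-dependent cytoskeletal genes and 2 Egr corepressors.

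Ethanol was compared with control within IP. Of the 10 genes, *Fosb* and *Egr2* were higher with ethanol (edgeR, adjusted p below 0.05), 2 of 10 beside 21.4% of all tested genes, and none was lower. The log2 fold change was above 0 for 7 of the 10, with a median of 0.27 beside 0.01 for all genes. *Egr2* held 3.71, 3.90, 3.74, 3.56, 3.43 and 4.06 CPM in the 6 control libraries and 4.10, 4.80, 4.36, 5.20, 7.26 and 5.66 CPM in the 6 ethanol libraries. Every ethanol library lay above every control library, the 1 member of 10 without overlap beside 9.96% of all genes, and the log2 fold change was 0.49 ± 0.122 (adjusted *p* = 0.00950), 1.40-fold. *Fosb* (ENSMUSG00000003545, chromosome 7, 19302696 to 19310051, minus strand), a Fos protein known for its stable splice form, ranged from 1.90 to 2.97 CPM in control (median 2.34) and from 2.55 to 3.15 CPM in ethanol (median 2.84). These groups overlapped, the log2 fold change was 0.25 ± 0.0888 (adjusted *p* = 0.0316), and the call was lost without any one of control replicates 2, 3 and 6 or ethanol replicates 2, 5 and 6 (adjusted *p* from 0.0520 to 0.139). Marker sums moved with ethanol as well. In IP the microglia sum was 31.2 to 34.7 CPM in control and 34.8 to 39.0 CPM in ethanol (2 of 11 markers higher), and the astrocyte sum 1733 to 1811 CPM and 1857 to 1929 CPM (4 of 9 higher), neither with overlap. Their part in the members' differences was not tested.

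The genes with the widest spread between dishes, *Fos*, *Ier2* and *Egr1*, did not pass over the 12 libraries fitted without a block. *Egr1* had a log2 fold change of 0.51 with a 95% interval of -0.09 to 1.098 (adjusted *p* = 0.241), *Fos* 0.35 with -0.44 to 1.14 (adjusted *p* = 0.590) and *Ier2* 0.29 with -0.31 to 0.89 (adjusted *p* = 0.541). These intervals include no change, and for *Egr1* and *Fos* they reach past 1 log2 unit. *Junb*, the AP-1 member most abundant here, ranged from 186 to 215 CPM in IP control and from 200 to 229 CPM in IP ethanol. *Arc* ranged from 4.13 to 6.10 CPM in control and from 3.31 to 6.67 CPM in ethanol, and *Dusp1* from 62.2 to 77.4 CPM and from 55.6 to 81.3 CPM. The groups of all 3 overlapped. *Junb* (0.12, 0.02 to 0.22, adjusted *p* = 0.0897), *Egr3* (0.34, -0.01 to 0.69, adjusted *p* = 0.179), *Arc* (-0.10, -0.50 to 0.30) and *Dusp1* (-0.12, -0.36 to 0.12) did not pass either. *Jun* had the narrowest interval of the 10, -0.06 to 0.04 around -0.01 (adjusted *p* = 0.843).

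Ethanol was also compared within each set of dishes. The split was chosen after the values were seen, with *Egr1*, *Ier2*, *Arc* and *Dusp1* among the genes that showed it. In ethanol *Egr2* (4.10 to 4.80 CPM in replicates 1 to 3 and 5.20 to 7.26 CPM in replicates 4 to 6), *Egr3* and *Junb* also split with no overlap. In control the sets of these 3 genes overlapped. The p-values of all 10 genes within the sets, or with a term for the set, are therefore a description. In replicates 1 to 3, 3 of the 10 genes passed, beside 12.2% of all genes. *Ier2* was higher with ethanol (0.27 ± 0.0700, adjusted *p* = 0.00422), and *Dusp1* (-0.21 ± 0.0415, adjusted *p* = 1.41e-05) and *Arc* (-0.30 ± 0.102, adjusted *p* = 0.0330) were lower. In replicates 4 to 6, 4 of the 10 passed, all higher, beside 15.2% of all genes. They were *Egr2* (0.71 ± 0.0915, adjusted *p* = 2.53e-12), *Ier2* (0.29 ± 0.0464, adjusted *p* = 2.50e-08), *Junb* (0.13 ± 0.0309, adjusted *p* = 0.000281) and *Egr3* (0.49 ± 0.183, adjusted *p* = 0.0476). The call of *Egr2* did not hold in replicates 1 to 3 alone (0.22 ± 0.103, adjusted *p* = 0.159), nor that of *Fosb* in either set (0.27 ± 0.126 and 0.23 ± 0.117). *Ier2* had nearly the same fold change in both sets, while *Arc* (0.03 ± 0.0839) and *Dusp1* (-0.06 ± 0.0365) did not pass in replicates 4 to 6, and whether the sets differ in their ethanol response was not tested. A fit over the 12 libraries with a term for the set, added after the split was seen, called *Egr1* (0.49 ± 0.105, adjusted *p* = 0.00702), *Egr2*, *Junb* and *Fosb*, 4 of 10 beside 22.6% of all genes, and left *Ier2* at adjusted *p* = 0.0509. *Egr1* and *Egr2* were the 2 members with every ethanol library above every control library within both sets, a pattern that 6.83% of all genes had. For *Egr2* it follows from the separation over all 12 libraries, and for *Egr1* the sets were chosen with its values seen.

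**Figure D4:**
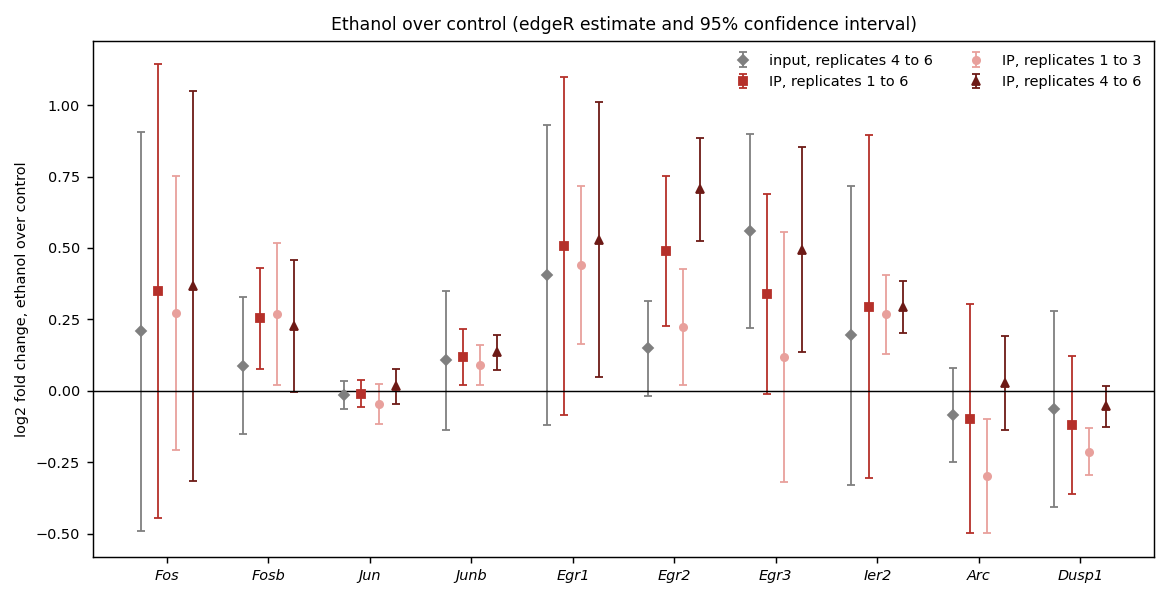
Log2 fold change of ethanol over control (y axis, points) with its 95% confidence interval (bars) for the 10 genes (x axis) in input, in all IP libraries and in the IP libraries of replicates 1 to 3 and 4 to 6. The intervals of *Fos*, *Egr1* and *Ier2* are wide over the 12 IP libraries, that of *Ier2* is narrow within each set, and *Egr2* lies higher in IP replicates 4 to 6 than in replicates 1 to 3.

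In input, ethanol was tested in 3 against 3 dishes. Only *Egr3* passed, 1 of 10 beside 15.0% of all genes, with 0.924, 1.11 and 1.25 CPM in control and 1.55, 2.12 and 1.16 CPM in ethanol. The groups overlapped, and the log2 fold change was 0.56 ± 0.173 (edgeR, adjusted *p* = 0.0114). The call was lost without ethanol replicate 5 (0.31, adjusted *p* = 0.386), without control replicate 4 (0.46, adjusted *p* = 0.103) and with DESeq2 (adjusted *p* = 0.0643). *Egr1* was at 162.6 ± 27.5 CPM in control and 216 ± 32.6 CPM in ethanol (SD, n = 3), a log2 fold change of 0.41 with a 95% interval of -0.12 to 0.93 (adjusted *p* = 0.320), beside 0.51 in IP. *Fos* (0.21 ± 0.252), *Ier2* (0.19 ± 0.188), *Junb* (0.11 ± 0.0878) and *Egr2* (0.15 ± 0.0854) did not pass. None of the 10 genes separated the input groups without overlap, a separation that 27.1% of all genes showed.

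The difference in the ethanol effect between IP and input was tested as an interaction. Over 18 libraries no gene of the 24495 passed (edgeR, 1459 at an unadjusted *p* below 0.05, and 2 with DESeq2), and the lowest adjusted *p* of the 10 was 0.874, that of *Egr2* with a log2 difference of 0.33 ± 0.213. In the 12 libraries of replicates 4 to 6, where dish was entered as a block, *Egr2* passed, 1 of 10 beside 0.416% of all genes, and its ethanol effect was larger in IP by 0.56 ± 0.122 on the log2 scale (adjusted *p* = 0.00403). Within a dish, *Egr2* in IP was at 0.617, 0.520 and 0.886 of its input in the control dishes and at 0.832, 1.05 and 0.990 in the ethanol dishes, so the dishes of the treatments overlapped. The log2 ratios ran from -0.943 to -0.175 in control dishes and from -0.265 to 0.0726 in ethanol dishes. The SE of 0.122 draws on the spread of other genes, so the adjusted *p* does not measure the spread of *Egr2* between these dishes alone. *Egr1* had a blocked difference of 0.14 ± 0.0381 (adjusted *p* = 0.0684), and the other 8 genes did not pass.

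The genes that act on or beside these members were taken from lists by role. Of 33 other immediate early genes, 15 were lower and 13 higher in IP, where 6326 of all 24495 genes were lower and 6172 higher (51.0% in all). The prostaglandin synthase *Ptgs2* fell by 1.31 on the log2 scale, the factor *Klf4* by 1.12 and the G protein regulator *Rgs2* by 0.90. The nuclear receptor *Nr4a3* (0.73 ± 0.0825), *Csrnp1* (0.43 ± 0.0401) and *Nfil3* (0.34 ± 0.0373) were higher in IP. The mRNAs of AU-rich element binding and decay factors were mostly lower in IP, 10 of 19 lower and 5 higher, with *Zfp36* (-0.996 ± 0.140), *Zfp36l2* (-0.82 ± 0.0201) and the deadenylase subunit *Cnot7* (-0.40 ± 0.0276) lowest and *Elavl1*, *Hnrnpd* and *Khsrp* (0.23, 0.23 and 0.15) highest. The fall of *Zfp36* over 18 libraries includes its split between the sets of dishes. In control replicates 4 to 6 it held 45.2 to 58.9 CPM in input and 29.3 to 34.4 CPM in IP. Both Egr corepressors were lower in IP, *Nab1* (-0.55 ± 0.0520) and *Nab2* (-0.16 ± 0.0241).

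Beside the counts that follow, 51.0% of all tested genes differed between IP and input, and 25.8% were lower in IP. Of the 17 upstream transcription factors, 6 were higher and 6 lower in IP. *Atf1* (-0.52), *Elk1* (-0.48) and *Atf2* (-0.29) had the largest decreases, and *Elk4* (0.47), *Crtc1* (0.39) and *Mef2c* (0.26) the largest increases. Among 28 kinases, receptors and adaptors of the ERK and JNK pathways, 10 were higher, led by the receptors *Fgfr1* (0.39) and *Pdgfra* (0.26) and by *Map2k7* (0.21), and 11 lower, led by *Pdgfrb* (-0.54), *Mapk3* (-0.38) and *Nras* (-0.37). Of 15 feedback inhibitors, relatives of *Dusp1* among them, 4 were higher and 9 lower. *Dusp2* (-1.03 ± 0.275), *Dusp10* (-0.59 ± 0.0349) and *Dusp7* (-0.20 ± 0.0317) fell most, and *Dusp16* (0.26), *Spry4* (0.23) and *Spred3* (0.15) rose most. Of 16 SRF-dependent cytoskeletal genes, 11 were higher in IP, led by *Cnn1* (0.73), *Myl9* (0.51) and *Acta2* (0.43), and the myosin heavy chain *Myh9* (-0.36) was lower. The median log2 fold changes of the lists lay between -0.36 for the Egr corepressors and 0.28 for the SRF-dependent cytoskeletal genes, beside -0.03 for all genes.

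With ethanol, most of the SRF-dependent cytoskeletal genes were lower. They share SRF as a regulator with *Fos*, *Egr1* and *Egr2*, and SRF acts on them with the MRTF coactivators. In IP 13 of the 16 genes were lower with ethanol and none higher, and in input 14 were lower and none higher. Of all 24495 genes, 2322 were lower and 2911 higher in IP (21.4% in all), and 1905 were lower and 1767 higher in input (15.0% in all). The list had a median log2 fold change of -0.27 in IP and -0.26 in input beside 0.01 and -0.00 for all genes. The smooth muscle type genes *Cnn1*, *Acta2* and *Tagln* had the largest changes, -0.70 ± 0.0546, -0.56 ± 0.0399 and -0.51 ± 0.0631 in IP. *Srf* itself was lower with ethanol in IP (-0.27 ± 0.0282, adjusted *p* = 2.23e-11), and so it was in the input fraction (-0.35 ± 0.0288, adjusted *p* = 3.31e-30). No member of the 10 was lower in the fits over all libraries of a fraction without a block.

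Of the 33 other immediate early genes, 4 were higher and 6 lower with ethanol in IP, and 4 higher and 7 lower in input. Of all tested genes, 21.4% were called in IP and 15.0% in input. The AP-1 related genes *Maff* (-0.34 ± 0.0253) and *Fosl1* (-0.18 ± 0.0477) and the factor *Klf2* (-0.22 ± 0.0715) fell in IP, and they fell in input too (-0.34, -0.19 and -0.31). *Rgs2* (0.22 ± 0.0584), *Ctgf* (0.18 ± 0.0267) and the antiproliferative *Btg2* (0.18 ± 0.0244) were higher in IP. Among the AU-rich element binding and decay factors, *Hnrnpd*, whose product speeds decay of such mRNAs, fell by 0.31 in IP and by 0.31 in input, and *Elavl1*, whose product stabilises them, by 0.12 and by 0.11. The subunits of deadenylase complexes *Pan2* (0.20), *Cnot6l* (0.16) and *Pan3* (0.12) were higher in IP, and 5 of 19 were higher and 2 lower in all. *Zfp36* did not pass (0.03 ± 0.199 in IP).

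Beside the counts that follow, 21.4% of all tested genes were called with ethanol in IP. Of the 17 upstream factors, 5 were higher with ethanol in IP and *Srf* was the 1 that was lower. *Mef2c* (0.27 ± 0.0630), *Crtc3* (0.11 ± 0.0274) and *Crebbp* (0.11 ± 0.0297) had the largest increases among those 5. Of 28 kinases, receptors and adaptors, 7 were higher, led by *Pdgfra* (0.47 ± 0.0945), *Rps6ka5* (0.16) and *Sos2* (0.14), and *Hras* (-0.10) was lower. Of 15 feedback inhibitors, *Spry1* (-0.26 ± 0.0345), *Dusp5* (-0.18 ± 0.0478) and *Dusp14* (-0.15 ± 0.0352) had the largest decreases of the 4 that were lower, and *Spred1* (0.10) and *Spred2* (0.08) were higher. Neither Egr corepressor passed in IP, and *Nab1* was higher in input (0.15 ± 0.0292, adjusted *p* = 1.24e-05).

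Some members share their position with other genes, and the deposited counts did not use strand, so read pairs on an overlap were set aside. *Junb* (ENSMUSG00000052837, chromosome 8, 84974484 to 84978718, minus strand) overlaps *Prdx2* on the other strand over 351 bases, *Jun* the antisense *Junos* over 689 bases and the long form of *Dusp1* *Ergic1* over 640 bases. The share of a member's pairs that lay on the opposite strand was 4.84% for *Junb* and 1.98% for *Dusp1*, and at most 0.582% for the other 8 genes, *Arc* (ENSMUSG00000022602, chromosome 15, 74669083 to 74672570, minus strand), whose product forms capsid-like particles and acts at synapses, among them. *Jun* had 259443 pairs on its own strand over the 18 libraries and 234207 in the counts that set overlaps aside. Counts of the sense strand called the same number of members in each comparison, 6, 2, 1 and 0.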

How the data were processed

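Raw read pair counts per gene, not normalized, were deposited for the 18 libraries. The authors made them with STAR on GRCm38 after trimming by Trimmomatic. The counts without regard to strand were used. The members and lists were chosen with earlier results of these data known. The genes named are the 10 members, of each list the 3 largest called changes in each direction in IP vs. input and in ethanol in IP, the 5 genes most like the members, and, outside this rule, single cell type markers and *Mkl2*. The 24495 genes with at least 10 pairs were tested with edgeR 4.0.16 in R 4.3.3 (TMM, estimateDisp, robust glmQLFit, glmQLFTest), with Benjamini-Hochberg adjustment over all of them and a threshold of 0.05. The SE is the absolute log2 fold change divided by the square root of F. The IP vs. input model included treatment. Each fraction had its own ethanol fit. Input and IP of the same treatment and number come from the same dish by their labels, so the dish is a true block, whereas the labels give dishes of different treatments no link beyond the number. Alternatives included DESeq2 1.42.0, other normalizations and filters, and leaving out each library. The fits were tested on simulated data with the same spread beyond counting noise for every gene. That spread was not matched to the wide spread of *Fos*, *Egr1* and *Ier2*, so the simulation does not cover them.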

Additional observations from a re-analysis of the deposited data

Results flagged for a closer look

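The ethanol effect on *Egr2* differed between the fractions in replicates 4 to 6 (12 libraries, dish as a block), being larger in IP by 0.56 on the log2 scale (edgeR, adjusted *p* = 0.00403). Without the block the same libraries and the 18 libraries gave no call. The IP over input ratios of *Egr2* overlapped between control and ethanol dishes, and the fit takes its spread in part from other genes. No library stood apart from the other 5 of its group for any of the 10 genes by Dixon's criterion, in 20 groups of 6 IP libraries, where chance alone sets about 1 in 20 groups apart.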

How the results depend on the processing

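The alternatives covered DESeq2, other size factors and filters, a GC and length correction, a test against a fold change of 1.2, other sets of libraries, strand and leaving out each library. Of IP vs. input, the 6 calls held without any 1 of the 18 libraries (6 to 8 members called, 12069 to 12503 genes), and 4936 genes passed beyond a fold of 1.2 in place of 12498. Of ethanol in IP, 2 members became 0 beyond a fold of 1.2, 1 with the GC and length correction, 4 in replicates 4 to 6 only, 4 with the term for dishes and 1 to 3 without any 1 library, and 5233 genes became 95 beyond a fold of 1.2 and 2995 in replicates 1 to 3. *Jun* (0.0155) and *Arc* (0.0259) changed sign in replicates 4 to 6. *Egr2* held in 12 of 12 fits without a library (0.37 to 0.55). Of ethanol in input, 1 member became 0 with DESeq2, 0 beyond a fold of 1.2, 0 in the fit over 18 libraries and 0 to 3 without any 1 library, and 3672 genes became 55 beyond a fold of 1.2 and 2175 over 18 libraries. Leaving out a library took *Jun* from -0.0374 to 0.0087 and *Arc* from -0.2392 to 0.0184 there. Of ethanol by fraction, the 0 genes became 2 with DESeq2, 13 in 12 libraries with no block and 0 to 1 without any 1 library, and *Egr1* went from -0.0623 to 0.2158. The cause of these shifts was not tested. The replicate block by dish called 11659 genes in IP vs. input, and in ethanol by fraction 1 member and 102 genes (1 and 51 with GC and length). The labels link dishes of different treatments by no more than the number, although the sets 1 to 3 and 4 to 6 moved alike in both for 5 members. Over genes of at least 1 CPM their deviations correlated at -0.10 to 0.22 in IP and 0.02 to 0.07 in input, and 3 of 12 IP libraries matched their own number best. A replicate block by that number called 8 members (7 higher, *Fos*, *Egr1* and *Ier2* among them, and *Dusp1* lower) and 5782 genes in IP, and 5 members, all higher, and 3829 genes in input. Of the list counts, 445 stayed within 1.5 times and 38 did not. Depth limits *Egr3*, *Fosb*, *Egr2* and *Arc* most.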
